A study of Mus musculus with 4 samples.

Results

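The lysosomal genes described here are 31 mouse genes for lysosomal proteases, other hydrolases, membrane proteins, accessory subunits of the proton pump and the transcription factors TFEB and TFE3. They were taken as the rows of the deposited expression table whose gene symbol is on that list, and all 31 were found among its 26207 genes. The libraries were bulk RNA-seq of mouse (Mus musculus) T helper 2 (Th2) cells, CD4 T cells known for IL-4, IL-5 and IL-13, with spleen as the stated source. The treated group was 2 libraries of Th2 cells given dopamine at 10 µM, and the control group was 2 libraries of Th2 cells given phosphate-buffered saline (PBS). The sources used here give no strain, age, genotype, cell purity or treatment time. The labels do not state whether a group's 2 libraries were from different mice or cultures. The p-values below therefore measure the scatter of these particular libraries, which could be purely technical. That scatter was mostly pooled over all genes, so an SE is not the spread of a gene's own libraries. A and B only name the libraries of a group and pair nothing.

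Lysosomes are acidic organelles in which proteases, glycosidases and lipases break down protein, sugar chains and lipids delivered by endocytosis and autophagy. The vacuolar ATPase pumps protons into the lumen, membrane proteins protect and fuse the organelle, and most soluble hydrolases are carried there by mannose 6-phosphate receptors. TFEB and TFE3, which are held in the cytoplasm when the kinase mTORC1 is active at the lysosomal surface, bind short CACGTG-containing promoter elements (the CLEAR element) and raise many lysosomal genes together.

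Because these genes are known for that shared element, stretches upstream of 5 of them are shown before the values: Glb1, Neu1, Gaa and Ctsd, which were higher with dopamine, and Gla, which did not pass the test. The sequences are from RefSeq promoter windows (GRCm38.p6), written 5′ to 3′ on the strand of the gene, and capitals mark CACGTG. The Glb1 stretch is chr9:114400828-114401075 on the plus strand, the Neu1 stretch chr17:34931003-34931252 on the plus strand, the Gaa stretch chr11:119267713-119267886 on the plus strand and the Gla stretch chrX:134601126-134601255 on the minus strand. They end at the base before the gene's annotated start in GENCODE M21, and for Ctsd only the 30 bases around a match are given, chr7:142387908-142387937 on the minus strand.
Glb1: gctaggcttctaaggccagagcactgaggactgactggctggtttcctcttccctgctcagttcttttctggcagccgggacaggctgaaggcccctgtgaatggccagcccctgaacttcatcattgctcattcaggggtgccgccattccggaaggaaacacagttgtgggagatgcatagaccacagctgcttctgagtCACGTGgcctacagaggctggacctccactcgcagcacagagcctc
Neu1: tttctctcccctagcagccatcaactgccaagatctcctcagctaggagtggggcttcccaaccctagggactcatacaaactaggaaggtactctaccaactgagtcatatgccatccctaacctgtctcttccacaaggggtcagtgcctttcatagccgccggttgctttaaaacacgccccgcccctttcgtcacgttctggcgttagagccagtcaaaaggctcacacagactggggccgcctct
Gaa: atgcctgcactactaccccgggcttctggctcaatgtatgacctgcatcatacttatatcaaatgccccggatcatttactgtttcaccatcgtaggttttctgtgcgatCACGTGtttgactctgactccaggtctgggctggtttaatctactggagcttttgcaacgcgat
Gla: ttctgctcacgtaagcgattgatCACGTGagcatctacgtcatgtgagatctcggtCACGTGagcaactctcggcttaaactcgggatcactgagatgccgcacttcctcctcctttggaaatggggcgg
Ctsd: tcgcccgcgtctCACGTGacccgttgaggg

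Windows running from 250 bases before to 50 bases after the RefSeq start were matched for 27 of the 31 genes, with no entry used for Ctsh, Asah1, Ctsw and Ctsb. CACGTG, which reads the same on both strands, occurred for 9 of the 27 genes (33.3%), against 8.09% of all genes with a window and 9.95% of those also in the expression table. TCACGTGA, a longer palindrome that contains CACGTG, occurred for 5 of the 27 (18.5%), against 1.13% and 1.64%. Among genes that rose with dopamine, 3 of 7 held CACGTG (Ctsd, Gaa and Glb1), among those that fell 1 of 5 did (Ctsl), and among those with a window that did not pass the test 5 of 15 did (Ctsa, Cln3, Mcoln1, Lgmn and Gla). A match describes the letters of a window and is no evidence of binding, and no match in the Neu1 window says only that these letters are not in it.

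Values are the authors' normalized read counts, that is reads divided by 1 size factor per library. Depth was 14167357 and 11492182 recovered reads in dopamine A and B, against 5717408 and 13241168 in PBS A and B, so PBS A was the shallowest. Summed over the 31 genes, dopamine A and B had 15813 and 16592 normalized counts and PBS A and B 14940 and 15948, which overlap. As a share of all counted reads the same genes took 0.145% and 0.149% in dopamine A and B and 0.154% and 0.157% in PBS A and B. The summed level thus did not separate the groups on the normalized scale, and the share of reads was lower in both dopamine libraries.

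**Figure D1:**
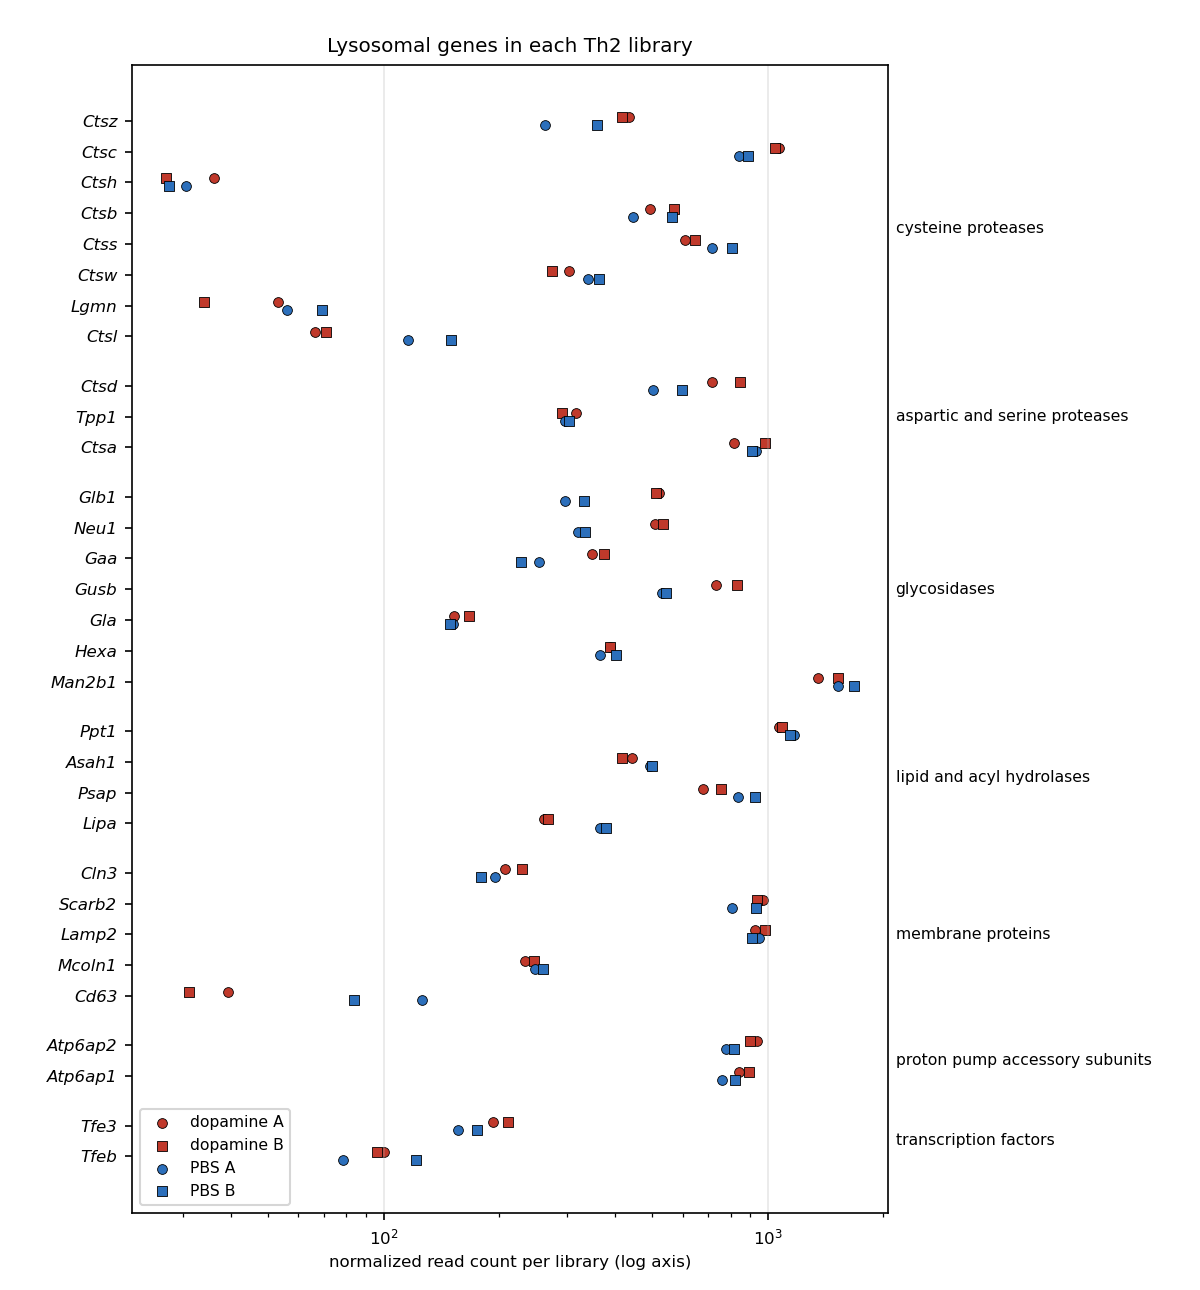
Normalized read count (log axis) of each of the 31 lysosomal genes in every library, dopamine A and B above PBS A and B in each row, ordered by role. Glb1, Neu1, Gaa and Gusb have both dopamine points right of both PBS points, and Cd63, Ctsl and Lipa have both dopamine points left of both PBS points.

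Lysosomal genes differed in both directions between dopamine and PBS libraries: several glycosidases and cathepsin D were higher with dopamine, and Cd63, cathepsin L and the acid lipase Lipa were lower. Of the 31 genes, 7 rose, 5 fell and 19 did not pass the threshold of an adjusted p of 0.05 (limma on log2 of the normalized count plus 1, adjusted over all 26207 genes by Benjamini-Hochberg). Of all genes tested 14.3% were called higher and 7.00% lower, 21.3% in either direction, against 22.6% and 16.1% of the lysosomal genes. Most of these genes are well expressed, and for such genes the background differs. Among all genes that averaged 100 normalized counts or more over the 4 libraries, here called abundant genes, 39.1% were called higher and 7.90% lower, against 7 of 27 lysosomal genes (25.9%) higher and 4 of 27 (14.8%) lower. The median log2 fold change of those 27 was 0.08, against 0.20 for all 8492 genes of that level. These abundant genes reach far higher levels than the lysosomal ones, and the difference in shares was not tested.

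Glycosidases, the enzymes that cut sugars off glycoproteins and glycolipids, were the role with the highest share of rising genes. Of 7 glycosidases 4 rose and none fell, with a median log2 fold change of 0.54. The rising share was 57.1%, set beside 14.3% of all genes and 39.1% of abundant genes, a level that all 7 reach. The difference between these shares was not tested. Their summed level was 4003 and 4327 normalized counts in dopamine A and B, against 3438 and 3660 in PBS A and B. Both dopamine sums stood above both PBS sums. As a share of all counted reads the groups were closer, at 0.0366% and 0.0388% in dopamine A and B and 0.0354% and 0.0361% in PBS A and B.

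Glb1, the beta-galactosidase that degrades GM1 ganglioside (mm10, chr9:114401076-114474898, plus strand), had 522 and 511 normalized counts in dopamine A and B, against 297 and 333 in PBS A and B. It rose by 0.71 on the log2 scale (SE 0.11, adjusted p = 1.03e-06, limma), the largest rise among the 31 genes. Neu1, the sialidase that removes terminal sialic acids (chr17:34931253-34935953, plus strand), had 510 and 535 in dopamine A and B, against 321 and 333 in PBS A and B. It rose by 0.67 (SE 0.11, adjusted p = 2.32e-06, limma). Each gene was higher in both dopamine libraries than in either PBS library, and the library values within a group differed little.

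GLB1 and NEU1 sit in a complex with the carboxypeptidase cathepsin A, encoded by Ctsa, which protects both of them from degradation. Ctsa had 816 and 982 normalized counts in dopamine A and B, against 933 and 908 in PBS A and B, and did not pass the test (log2 fold change -0.04, SE 0.09, adjusted p = 0.797, limma). The ratio of Glb1 to Ctsa was 0.640 and 0.520 in dopamine A and B and 0.319 and 0.366 in PBS A and B. For Neu1 over Ctsa the ratio was 0.625 and 0.545 in dopamine A and B and 0.344 and 0.367 in PBS A and B. A ratio within a library does not depend on the scaling between libraries, and both ratios were higher in each dopamine library than in each PBS library. These ratios show unequal transcript levels and were not tested on their own.

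Gaa, the acid alpha-glucosidase that degrades glycogen in the lysosome (chr11:119267887-119285454, plus strand), had 348 and 374 normalized counts in dopamine A and B, against 253 and 228 in PBS A and B. Its log2 fold change was 0.59 (SE 0.12, adjusted p = 1.54e-04, limma). Gusb, the beta-glucuronidase of glycosaminoglycan breakdown (chr5:129989011-130003049, minus strand), had 734 and 832 in dopamine A and B, against 530 and 542 in PBS A and B. It rose by 0.54 (SE 0.09, adjusted p = 1.64e-05, limma), and for both genes the groups did not overlap.

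The other 3 glycosidases did not pass the test. Man2b1, the alpha-mannosidase of glycoprotein breakdown, was the gene with the highest count of the 31, at 1349 and 1521 in dopamine A and B and 1520 and 1673 in PBS A and B. Hexa, the alpha subunit of beta-hexosaminidase, had 387 and 387 in dopamine A and B and 365 and 403 in PBS A and B. Gla, the alpha-galactosidase whose promoter stretch holds CACGTG at 2 places, had 153 and 167 in dopamine A and B and 151 and 149 in PBS A and B. Their log2 fold changes were -0.15 for Man2b1, 0.01 for Hexa and 0.09 for Gla.

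Among the proteases, cathepsins went in different directions. Ctsd, the main aspartic protease of lysosomes (chr7:142375911-142388038, minus strand), had 714 and 848 normalized counts in dopamine A and B, against 503 and 598 in PBS A and B. It rose by 0.50 on the log2 scale (SE 0.10, adjusted p = 1.17e-04, limma), and without PBS A it was 0.38 and no longer past the threshold. Tpp1, a tripeptidyl peptidase of the serine protease kind, had 317 and 291 in dopamine A and B and 297 and 304 in PBS A and B. With Ctsa, Ctsd and Tpp1 make up the aspartic and serine proteases, of which 1 of 3 rose (33.3%). That share stood beside 14.3% of all genes and 39.1% of abundant genes.

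Of the 8 cysteine proteases 2 rose, 2 fell and 4 did not pass the test, with a median log2 fold change of -0.10. Those shares of 25% each way stood beside 14.3% higher and 7.00% lower among all genes, and 39.1% and 7.90% among abundant genes. Ctsz, the carboxypeptidase cathepsin Z, had 436 and 418 normalized counts in dopamine A and B, against 263 and 360 in PBS A and B. Its rise of 0.47 (SE 0.12, adjusted p = 0.0027, limma) was not called under 5 of the 16 alternatives. It was 0.13 in both settings with a correction for GC content and length, 0.22 with upper-quartile scaling, 0.24 without PBS A and 0.27 with libraries scaled on the abundant genes. Ctsc, the dipeptidyl peptidase that activates the serine proteases of cytotoxic granules, had 1066 and 1046 in dopamine A and B, against 843 and 889 in PBS A and B. It rose by 0.29 (SE 0.08, adjusted p = 0.0103, limma), and was not called under 7 of the 16 alternatives. These were that rescaling (0.09), upper-quartile scaling (0.10), edgeR with TMM and limma-voom (0.18 each), and leaving out PBS A (0.25), dopamine A (0.27) or dopamine B (0.30). For Ctsz and Ctsc the dopamine libraries stood above the PBS libraries.

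Ctsl, the endopeptidase cathepsin L (chr13:64359337-64370890, minus strand), fell the most among the proteases. It had 66.3 and 70.9 normalized counts in dopamine A and B, against 116 and 149 in PBS A and B, which is -0.93 on the log2 scale (SE 0.18, adjusted p = 7.89e-05, limma). Ctss, cathepsin S, known for trimming the invariant chain of MHC class II in antigen-presenting cells, had 609 and 648 in dopamine A and B, against 717 and 808 in PBS A and B. Its log2 fold change was -0.28 (SE 0.09, adjusted p = 0.0271, limma). Without PBS B it was -0.19, without dopamine A -0.23 and without dopamine B -0.32, in each case not called. Both genes were lower in each dopamine library than in each PBS library.

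The 4 cysteine proteases that did not pass the test differed in level. Ctsb, cathepsin B, had 492 and 570 normalized counts in dopamine A and B and 445 and 562 in PBS A and B, which overlap. Ctsh, the aminopeptidase cathepsin H, had 36.3 and 27.2 in dopamine A and B and 30.6 and 27.6 in PBS A and B. Lgmn, the asparaginyl endopeptidase legumain that processes other cathepsins, had 53.2 and 34.0 in dopamine A and B and 56.1 and 69.0 in PBS A and B. Ctsw, a cathepsin found mainly in cytotoxic lymphocytes, was also lower in both dopamine libraries without passing the test. It had 304 and 275 in dopamine A and B and 340 and 363 in PBS A and B (log2 fold change -0.28, adjusted p = 0.0757, limma).

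**Figure D2:**
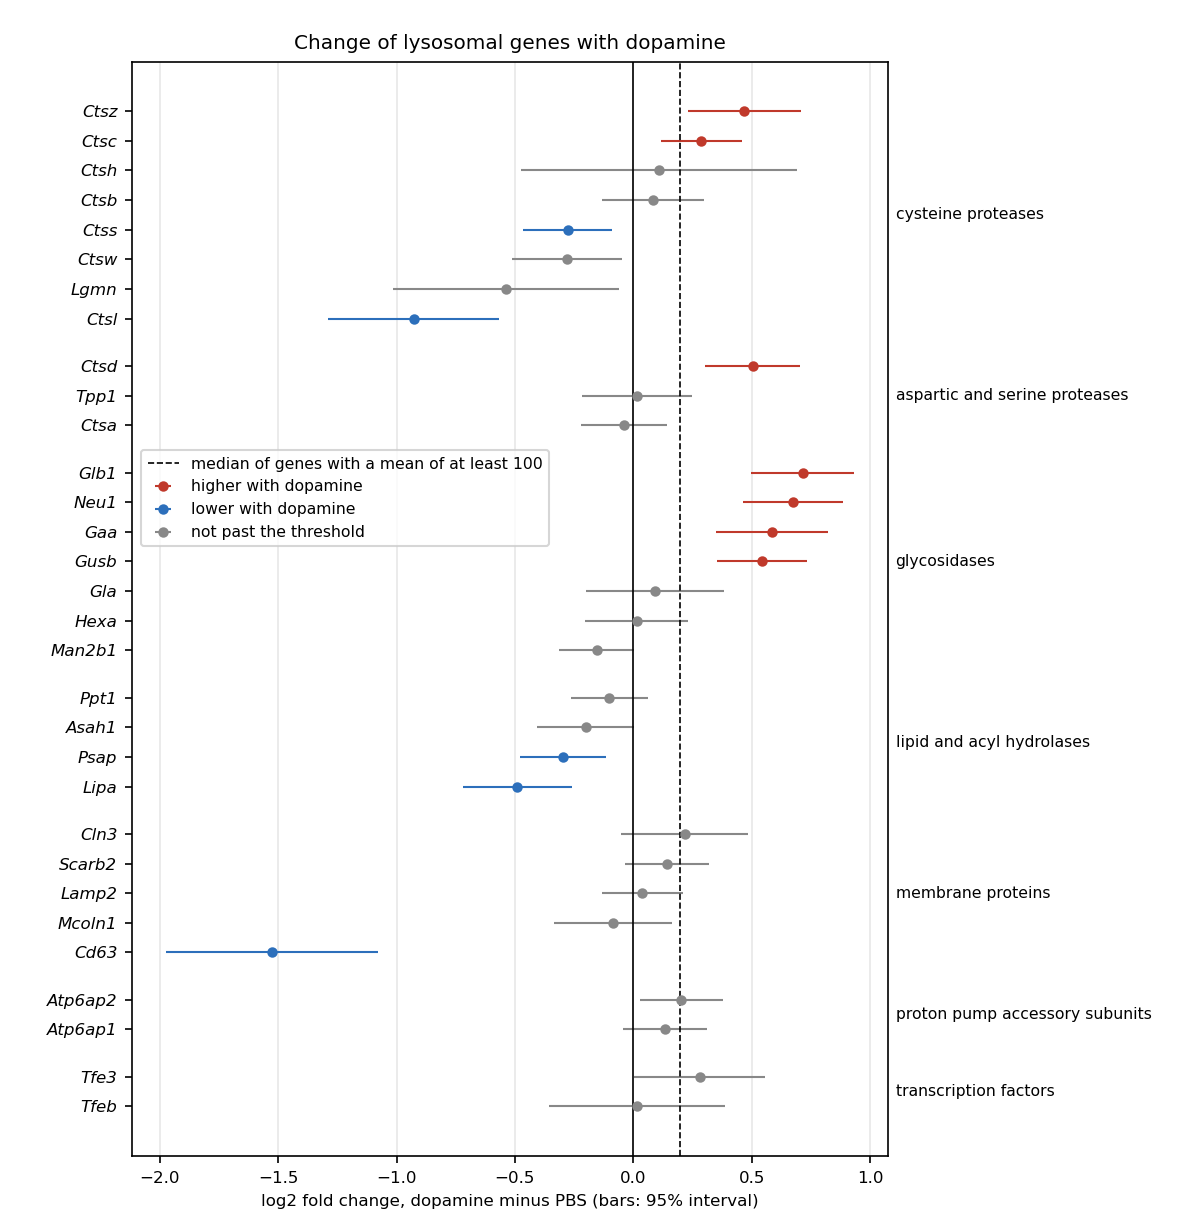
Log2 fold change of dopamine over PBS for each of the 31 lysosomal genes, with its 95% interval from limma, grouped by role and coloured by call. The dashed line is the median of 0.20 over abundant genes (mean of 100 normalized counts or more), and Cd63 at -1.52 lies farthest from 0.

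Among lipid and acyl hydrolases, with the saposin precursor Psap counted among them though it is no hydrolase, the called genes were lower with dopamine. Of 4 genes 2 fell (50%) and none rose, set beside 7.00% of all genes and 7.90% of abundant genes called lower. All 4 had lower values in both dopamine libraries than in either PBS library. Of all genes 30.4% lay below in this way and 28.5% above, against 10 and 13 of the 31 lysosomal genes. The summed level of the 4 genes was 2449 and 2532 normalized counts in dopamine A and B, against 2864 and 2948 in PBS A and B.

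Lipa, the acid lipase that frees cholesterol and fatty acids from lipoproteins (chr19:34492318-34527474, minus strand), had 261 and 268 normalized counts in dopamine A and B, against 365 and 378 in PBS A and B. It fell by 0.49 on the log2 scale (SE 0.11, adjusted p = 0.00102, limma). Psap, the precursor of the saposins that present sphingolipids to their hydrolases, had 679 and 755 in dopamine A and B, against 836 and 926 in PBS A and B. Its log2 fold change was -0.30 (SE 0.09, adjusted p = 0.0139, limma), and without PBS B or without dopamine A it was -0.22 and not called. Asah1, the acid ceramidase, and Ppt1, which removes palmitate from proteins, did not pass the test, at -0.20 and -0.10.

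Cd63, a tetraspanin of late endosomes and lysosomes that is also abundant in the granules of platelets, mast cells and basophils, showed the largest difference of all 31 genes. It is at chr10:128900989-128912822 on the plus strand. It had 39.3 and 31.1 normalized counts in dopamine A and B, against 126 and 83.5 in PBS A and B. It fell by 1.52 on the log2 scale (SE 0.22, adjusted p = 5.86e-07, limma), and the highest dopamine value lay below the lowest PBS value. In bulk libraries fewer cells of a type and less RNA per cell cannot be told apart.

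Markers of other blood cells moved between the same groups. The counts of falling markers below stand beside 7.00% of all genes and 7.90% of abundant genes called lower, and the differences in share were not tested. Basophil and mast cell markers summed to 898 and 824 normalized counts in dopamine A and B, against 2633 and 2243 in PBS A and B, with 8 of 9 called lower. Platelet and red cell markers summed to 525 and 451 in dopamine A and B, against 1894 and 1607 in PBS A and B, with 7 of 8 called lower. Both sums were lower in each dopamine library. Macrophage, monocyte and dendritic cell markers summed to 302 and 296 in dopamine A and B, against 460 and 552 in PBS A and B, with 7 of 19 called lower. Neutrophil markers summed to 87.2 and 65.1 in dopamine A and B, against 335 and 334 in PBS A and B, with 4 of 8 called lower. Most of the neutrophil sum was Mpo alone, at 72.5 and 60.2 in dopamine A and B and 267 and 303 in PBS A and B. Of these lists, S100a8, S100a9, Ly6g, Ngp, Ltf and C1qb were at 0 in dopamine B, Fcgr1 in dopamine A, Siglech, Cd209a and Spic in PBS A and Ly6g in PBS B.

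Summed markers of other lymphocytes were higher in both dopamine libraries, though not every gene of these lists was. The counts of rising markers below stand beside 14.3% of all genes and 39.1% of abundant genes called higher, and the differences in share were not tested. B cell and plasma cell markers summed to 2567 and 2560 normalized counts in dopamine A and B, against 1638 and 1578 in PBS A and B, with 7 of 12 called higher. Most of that sum was Ighm alone, at 2042 and 2059 in dopamine A and B and 1384 and 1350 in PBS A and B. Log2 fold changes were above 0 for 9 of the 12 genes. Pax5, Ebf1 and Cr2 were at -0.06, -0.15 and -0.52 and not called. CD8 T cell and NK cell markers summed to 749 and 732 in dopamine A and B, against 448 and 412 in PBS A and B, with 3 of 8 called higher. These 3 were Cd8a, Eomes and Nkg7. The NK cell genes Klrb1c, Ncr1 and Klre1 had log2 fold changes of -1.16, -0.49 and -0.20. Klrd1 had 0.75, and these NK cell genes were all at low counts and not called. Markers of the labelled cell type stood highest: Trac, Trbc2, Cd4 and the CD3 genes Cd3g, Cd3e and Cd3d together had 25935 and 26597 in dopamine A and B and 23427 and 24887 in PBS A and B, with 3 of 6 called higher and 1 lower. The part of these other cells in the difference of Cd63, Ctsl, Lipa, Ctss, Psap or the rising genes was not tested.

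**Figure D3:**
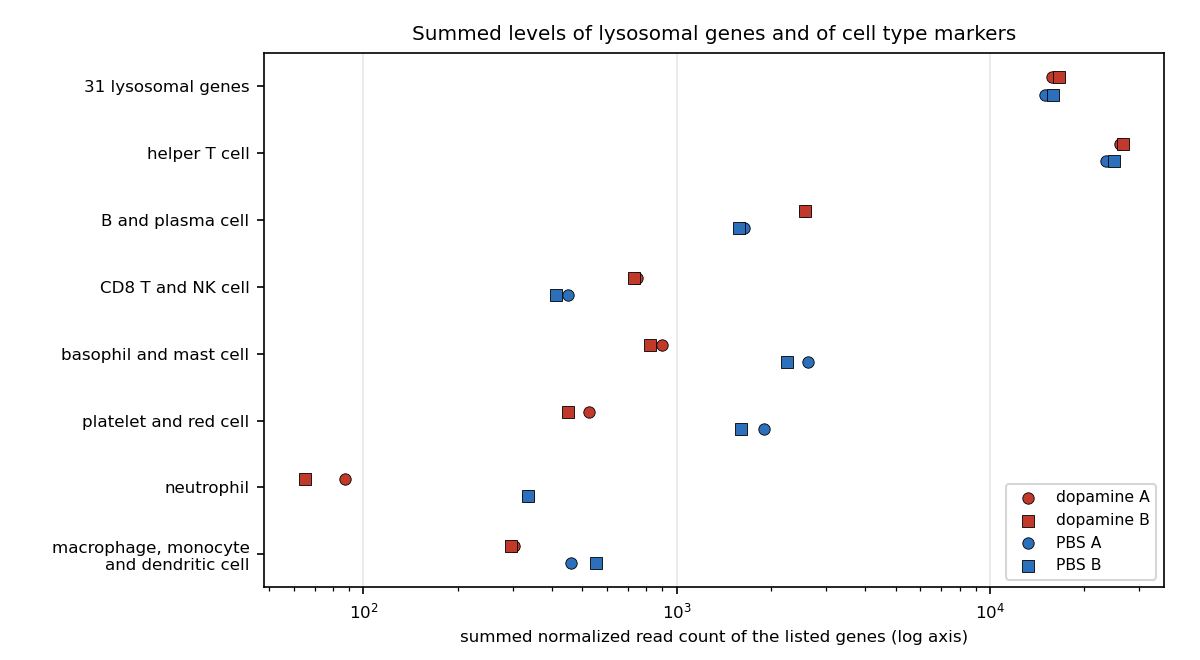
Summed normalized read count (log axis) of the 31 lysosomal genes and of the marker lists in each library, dopamine A and B above PBS A and B in each row. The sums of the lysosomal genes overlap between groups, whereas those of basophil and mast cell, platelet and red cell, neutrophil and macrophage markers are lower in both dopamine libraries.

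The remaining membrane proteins showed small differences that did not pass the test. Lamp2, a major glycoprotein of the lysosomal membrane, had 927 and 981 normalized counts in dopamine A and B and 948 and 912 in PBS A and B. Scarb2, an integral protein of the lysosomal membrane, had 974 and 938 in dopamine A and B and 805 and 932 in PBS A and B. Mcoln1, the calcium channel TRPML1, and Cln3, a membrane protein lost in juvenile Batten disease, had log2 fold changes of -0.08 and 0.22. The proton pump accessory subunits Atp6ap1 and Atp6ap2 had log2 fold changes of 0.13 and 0.20, with both dopamine libraries above both PBS libraries and neither past the threshold (adjusted p = 0.304 and 0.0912, limma).

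Transcripts of the transcription factors did not pass the test. Tfeb had 100.3 and 96.1 normalized counts in dopamine A and B and 78.1 and 121 in PBS A and B, so that the dopamine values lay inside the PBS range. Its log2 fold change was 0.01, with a 95% interval of -0.36 to 0.38. Tfe3 had 192 and 211 in dopamine A and B and 156 and 175 in PBS A and B, a log2 fold change of 0.28 with an interval of 0.00 to 0.56 and an adjusted p of 0.152 (limma). Both factors are known to be controlled mainly by phosphorylation and location in the cell, which RNA levels do not show.

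Per length of the principal transcript, the level was highest for Ctss in both groups, at a mean of 464 normalized counts per kilobase in dopamine libraries and 563 in PBS libraries. Ppt1 came next, at 453 in dopamine and 486 in PBS libraries, and below them Ctsc had 424 and 347, Man2b1 375 and 418, Atp6ap1 396 and 361 and Atp6ap2 395 and 343 in dopamine and PBS libraries. Over all 4 libraries Ctsh at 18.8 and Lgmn at 26.7 per kilobase were near the low end, and Tfeb and Tfe3 had 43.1 and 56.0. Cd63 and Ctsl, the genes with the largest falls, had 63.0 and 16.3 per kilobase. Of a gene's principal transcripts of the best rank the longest was taken, 6168 bases for Ctsl, and its value per kilobase depends on that length. Without division by length Cd63 and Ctsl averaged 69.9 and 100.5 normalized counts over the 4 libraries, against 30.4 for Ctsh and 53.1 for Lgmn. The largest falls were thus among the less abundant lysosomal transcripts.

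The genes that work around these hydrolases were read from lists of further lysosomal genes. Of 19 subunits of the vacuolar ATPase 10 rose and none fell, with a median log2 fold change of 0.28. Their summed level was 8754 and 9397 normalized counts in dopamine A and B, against 7029 and 7592 in PBS A and B. The rising share was 52.6%, against 14.3% of all genes and 39.1% of abundant genes, a level that not all of the 19 reach. With libraries scaled on the abundant genes the count was 4, where 6.89% of all genes were called higher. It was also smaller without PBS A or without dopamine B.

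Atp6v0b, a membrane-ring subunit, had 169 and 176 normalized counts in dopamine A and B, against 95.1 and 92.7 in PBS A and B (log2 fold change 0.87, SE 0.16, adjusted p = 2.54e-05, limma). Atp6v1f, of the cytoplasmic part, rose by 0.62 (SE 0.11) and Atp6v1g1, of its stalk, by 0.52 (SE 0.10). Atp6v0a2 rose by 0.41 (SE 0.10). It was not called at 0.22 with scaling on the abundant genes, at 0.21 with upper-quartile scaling, at 0.32 without PBS A or at 0.26 without dopamine B.

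Of 46 further genes for membrane and sorting proteins 7 rose (15.2%) and 4 fell (8.70%), set beside 14.3% and 7.00% of all genes tested. Of abundant genes, a level that not all of the 46 reach, 39.1% were called higher and 7.90% lower. M6pr, the cation-dependent mannose 6-phosphate receptor that carries hydrolases from the Golgi, had 4387 and 4473 normalized counts in dopamine A and B, against 3352 and 3326 in PBS A and B (log2 fold change 0.41, SE 0.06, adjusted p = 1.94e-06, limma). Nagpa, the enzyme that uncovers the mannose 6-phosphate tag, had 237 and 248 in dopamine A and B, against 132 and 153 in PBS A and B (0.76, SE 0.14, adjusted p = 2.92e-05, limma). Some other genes of hydrolase sorting were lower or did not pass the test. Igf2r, the larger mannose 6-phosphate receptor, was lower at 2044 and 2284 in dopamine A and B, against 2467 and 2512 in PBS A and B (-0.20, adjusted p = 0.0333, limma). Sort1, a further sorting receptor, fell by 0.96, and Gnptab and Gnptg, subunits of the enzyme that makes the tag, did not pass the test. Igf2r was not called with DESeq2 (-0.20) or without PBS A (-0.22), PBS B (-0.19) or dopamine A (-0.12), and Sort1 was not called with DESeq2 (-0.99) or without PBS B (-0.87) or dopamine B (-0.85). These 4 genes were picked after their values were seen. Abcb9, a lysosomal peptide transporter, rose by 0.61 and Abca2, a lipid transporter, by 0.50; Abcb9 was 0.43 without PBS A and 0.47 without dopamine B, and Abca2 was 0.36 without dopamine B, in each case not called.

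Among 42 other hydrolases 3 rose (7.14%) and 4 fell (9.52%), set beside 14.3% and 7.00% of all genes, with a median of 0.00. The shares of abundant genes, a level that not all of the 42 reach, were 39.1% higher and 7.90% lower. Lyz2, the lysozyme of myeloid cells, had 18.5 and 28.2 normalized counts in dopamine A and B, against 64.6 and 67.4 in PBS A and B (log2 fold change -1.49, SE 0.26, adjusted p = 1.88e-05, limma). Siae, a sialic acid acetylesterase, fell by 0.65, and Scpep1, a serine carboxypeptidase, rose by 0.69.

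In nutrient sensing at the lysosome and its transcription control 3 of 33 genes rose (9.09%) and 4 fell (12.1%), against 14.3% and 7.00% of all genes. Of abundant genes, a level that not all of the 33 reach, 39.1% were called higher and 7.90% lower. With scaling on abundant genes none of the 33 rose, where 6.89% of all genes were called higher. The 4 genes with the smallest p all fell. Rragd, the RagD GTPase that helps to bring TFEB and TFE3 to the lysosome and is itself one of their targets, had 92.6 and 92.2 normalized counts in dopamine A and B, against 333 and 342 in PBS A and B. It fell by 1.86 on the log2 scale (SE 0.14, adjusted p = 9.07e-15, limma). Fnip1, which works with folliculin on RagC and RagD, had 2536 and 2588 in dopamine A and B, against 4260 and 4444 in PBS A and B (-0.76, SE 0.06, adjusted p = 7.40e-13, limma). For both genes the gap between groups was wider than the distance between libraries of a group.

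Tfec, a relative of TFEB found mainly in myeloid cells, had 25.5 and 24.3 normalized counts in dopamine A and B, against 67.9 and 69.7 in PBS A and B (log2 fold change -1.43, SE 0.25, adjusted p = 1.40e-05, limma). Ppp3ca, the catalytic subunit of calcineurin, which removes phosphate from TFEB, fell by 0.36 (SE 0.09, adjusted p = 0.00237, limma). Rragd, Fnip1 and Ppp3ca were called lower in all 16 alternatives, and Tfec in all 15 that tested it.

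**Figure D4:**
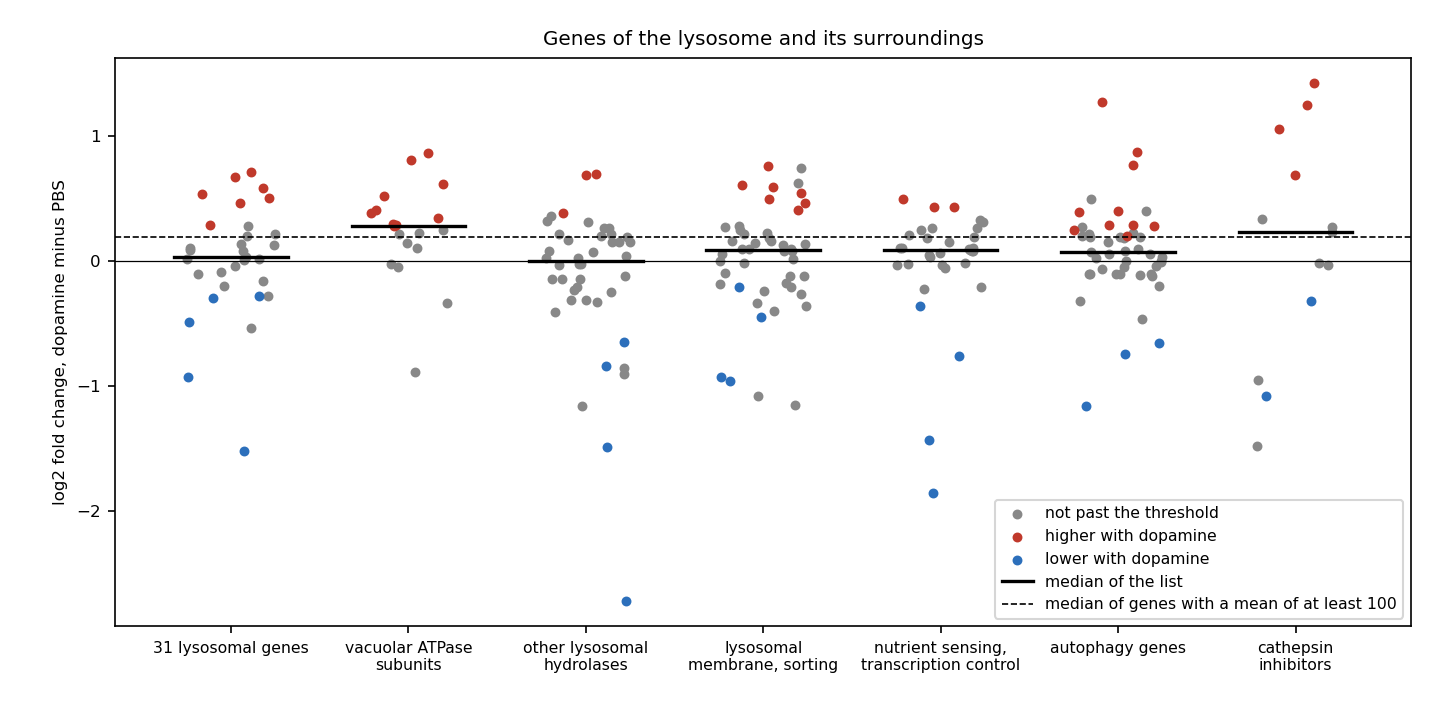
Log2 fold change of dopamine over PBS for the 31 lysosomal genes and for each gene of the 6 lists of further lysosomal, sensing, autophagy and cathepsin inhibitor genes, 1 point per gene coloured by call, with the median of each list as a bar. The dashed line is the median of 0.20 over abundant genes (mean of 100 normalized counts or more), and the lowest hydrolase point, Cts6, is a fitted value of a gene listed at 0 in both dopamine libraries.

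The counts of calls depended on how libraries were scaled. With the authors' size factors the median log2 fold change of the abundant genes was 0.20, and scaling the libraries on those genes lowered it by 0.195. Glb1 was then 0.52, Neu1 0.48, Gaa 0.39, Gusb 0.35 and Ctsd 0.31, all 5 still called higher. Under that scaling 5 lysosomal genes were called higher and 11 lower, where 6.89% of all genes were called higher and 12.1% lower. The added falls were Ctsw at -0.48, Lgmn at -0.73, Ctsa at -0.24, Man2b1 at -0.35, Asah1 at -0.40 and Ppt1 at -0.30. With edgeR on the recovered reads and TMM scaling, 6 of the 31 were higher and 10 lower, against 18.2% and 15.8% of 15329 genes.

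Glb1, Neu1, Gaa and Gusb were called higher, and Cd63, Ctsl and Lipa lower, in all 16 alternatives. In the authors' deposited table, an adjusted p under 0.05 was given with a higher level to 7 of the 31 genes and with a lower one to 4. The authors' deposited table gives Ctss an adjusted p of 0.0683. Ctsl shares 1742 exonic bases with the antisense gene Gm47123 and 395 with the pseudogene Gm49230, Ctsd 808 with Gm49369 on its own strand, and Glb1 165 with Tmppe on its own strand. On the opposite strand Ctsa, the denominator of both ratios above, shares 495 with Pltp and 324 with Neurl2, and Ctsb 774 with Fdft1. No source used here states the strand setting of the counting, so how reads in those bases were assigned is not known.

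**Figure D5:**
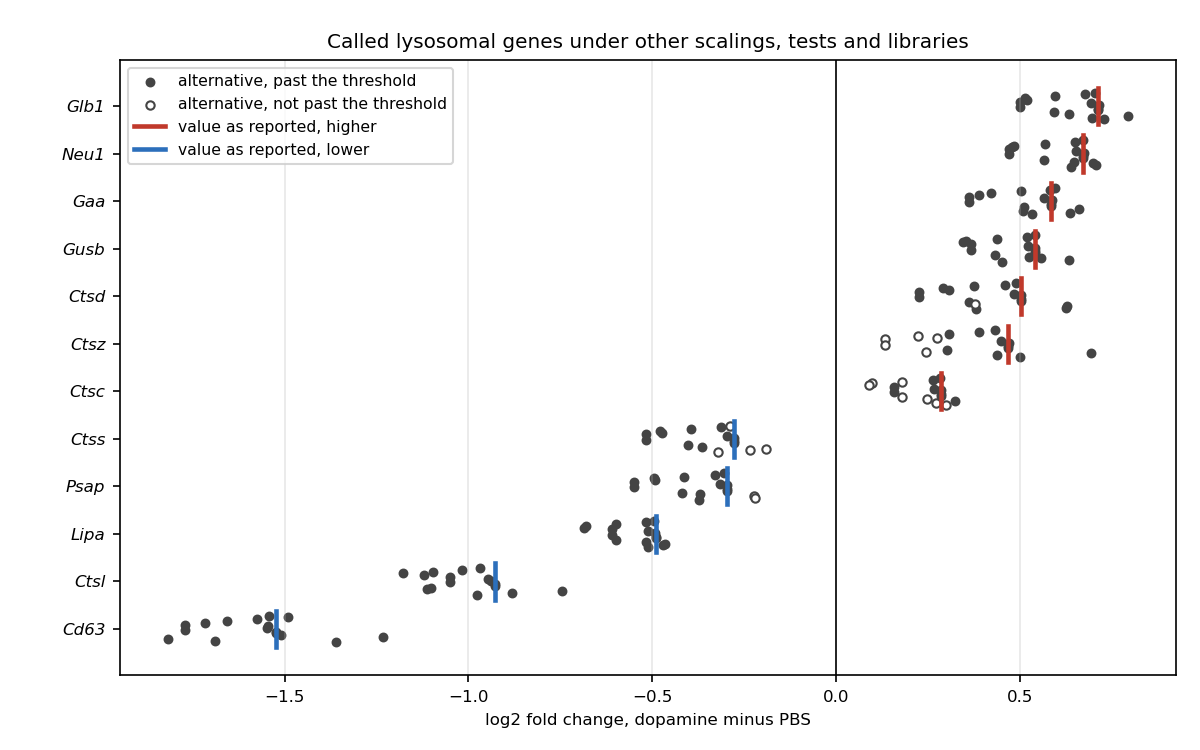
Log2 fold change of dopamine over PBS for the 12 called lysosomal genes as reported (bars) and under the 16 alternatives (points), filled where past an adjusted p of 0.05. Glb1, Neu1, Gaa, Gusb, Lipa, Ctsl and Cd63 have filled points only, whereas Ctsc, Ctsz, Ctsd, Ctss and Psap have open ones.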

How the data were processed

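Per the labels' protocols, Th2 cell RNA was taken up with an RNeasy kit and made into libraries with a TruSeq Stranded mRNA kit. The submitters' processing notes list mm10 as the build, and FastQC 0.11.2, TopHat2 2.0.13, HTSeq 0.6, DESeq2 and R 3.6.2 as tools. The annotation used for counting is not stated there.

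The values of the 4 libraries were deposited as a normalized signal, read counts that the authors divided by a size factor per library. All values (100%) were whole multiples of what 1 read is worth, within a tolerance of 0.01, so reads were recovered. The size factors were 1.30 and 1.03 for dopamine A and B and 0.589 and 1.31 for PBS A and B. Per the file headers the table also holds the authors' comparison: a deposited log2 fold change and its SE, a Wald score, and deposited raw and adjusted p-values. Columns carry the numbers 2 and 3 where titles have replicates 1 and 2, so each was matched to its group only. There were 0 columns of other samples.

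The test, run in R 4.3.3, was limma 3.58.1 (trended variance) on log2(value + 1), without a filter, 2-sided, with Benjamini-Hochberg at 0.05 over 26207 genes. The trend over all genes supplied 42.4 of the 44.4 degrees of freedom behind each SE, p-value and interval. It was limma that gave them. The pseudocount of 1 understates the fold changes of low genes. The test was tried on simulated data. As an alternative, edgeR 4.0.16 (quasi-likelihood, TMM, filterByExpr) was run on the recovered reads, which called 2793 genes higher and 2426 lower, and with DESeq2 1.42.0. Further alternatives were limma-voom, edgeR with upper-quartile scaling or unfiltered, a pseudocount of 0.1, a minimum of 5 CPM, limma with TMM scaling or with scaling on the abundant genes (mean of 100 or more), the column number as a block, correcting for length and GC content (11384 genes), and leaving out each library. Replicate libraries differed beyond sampling noise (chi-square per degree of freedom 3.98 for dopamine and 2.64 for PBS).

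All 31 members are named, and up to 4 genes with the smallest p from each of 6 further lists. A gene that this rule names is not reported here. The members, lists and tests were chosen with earlier results of these data known, and the lists were written from memory. Locations and transcript lengths are from GENCODE M21 on GRCm38, the assembly called mm10.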

Additional observations from a re-analysis of the deposited data

How the results depend on the processing

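Under all 16 alternatives the log2 fold changes of the 12 called lysosomal genes kept their sign, and 7 of the 12 stayed past the threshold throughout. Of the 19 that were not called, 7 were called lower in at least 1 alternative, 1 was called higher and 11 were called in none. Hexa turned negative with the correction for GC content and length, at -0.27 with and without the replicate block.

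Counts of called genes moved by over 1.5 times as follows, and the cause was not tested. Among the 31 lysosomal genes, 10 were lower with edgeR and TMM or with limma-voom, 11 with upper-quartile scaling or scaling on abundant genes, and 12 with the GC and length correction. Over all genes, 2013 were higher and 3149 lower with upper-quartile scaling, and 1806 and 3178 with scaling on abundant genes. The GC and length correction called 2314 higher (2466 with the block), DESeq2 719 lower and the 5 CPM minimum 894 lower.

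Other hydrolases called lower were 2 with DESeq2, 9 with upper-quartile scaling or the GC and length correction, 7 with scaling on abundant genes and 1 with the 5 CPM minimum. Membrane and sorting genes called lower were 1 with DESeq2, 9 with edgeR and TMM or voom, 11 with upper-quartile scaling, 10 with scaling on abundant genes and 12 with the GC and length correction (13 with the block). Vacuolar ATPase subunits called higher were 4 with upper-quartile scaling or scaling on abundant genes, and 1 was called lower with the GC and length correction. Nutrient-sensing genes called higher were 1 with DESeq2, edgeR and TMM, upper-quartile scaling or voom, 0 with scaling on abundant genes or the GC and length correction, and 7 with the 5 CPM minimum. Those called lower were 7 with upper-quartile scaling. Autophagy genes called higher were 6 with DESeq2, 5 with edgeR and TMM, 2 with upper-quartile scaling or scaling on abundant genes and 4 with voom. Those called lower were 1 with DESeq2, 8 with edgeR and TMM or voom, 11 with upper-quartile scaling, 9 with scaling on abundant genes and 7 with the GC and length correction (8 with the block).

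Leaving out 1 library at a time, 4 to 7 lysosomal genes were higher and 3 to 5 lower. The lowest count of higher genes came without PBS A and the lowest count of lower genes without PBS B. Over all genes 2152 to 3201 were higher and 762 to 1389 lower. In the same way the counts ran from 1 to 3 higher and 2 to 3 lower for other hydrolases, 3 to 8 and 1 to 2 for membrane and sorting genes, 2 to 7 and 1 to 2 for autophagy genes, 4 to 10 higher for the vacuolar ATPase, 1 to 4 higher for nutrient sensing and 1 to 2 lower for cathepsin inhibitors. Where a group was left with 1 library, that library is assumed to vary like the other group.

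Same-numbered columns deviated together with a correlation of 0.214 over 8492 genes, but with 2 pairs the numbers do not count as a pairing. With the number as a replicate block, 8 lysosomal genes were higher and 8 lower, 8 nutrient-sensing genes were higher, and with the GC and length correction as well 12 lysosomal and 9 other hydrolase genes were lower, 1 vacuolar ATPase subunit was lower and 0 nutrient-sensing genes were higher. With 2 libraries a group, and PBS A at 5717408 reads, differences in genes of low count such as Ctsh and Lgmn were estimated with wide intervals, from -0.47 to 0.69 for Ctsh and from -1.01 to -0.06 for Lgmn.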

Other observations

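Autophagy delivers cargo to lysosomal hydrolases, and cathepsin inhibitors restrain some of them. Of 47 autophagy genes 10 rose (21.3%) and 3 fell (6.38%), set beside 14.3% and 7.00% of all genes and 39.1% and 7.90% of abundant genes. Their median log2 fold change was 0.07. Scaling the libraries on abundant genes turned this to 2 higher and 9 lower, where 6.89% of all genes were called higher and 12.1% lower. Gabarapl1, an ATG8 family protein of the autophagosome, had 489 and 525 normalized counts in dopamine A and B, against 200.4 and 217 in PBS A and B (log2 fold change 1.28, SE 0.11, adjusted p = 2.84e-12, limma). Sqstm1, the autophagy receptor p62, had 2296 and 2544 in dopamine A and B, against 1366 and 1472 in PBS A and B (0.77, SE 0.07, adjusted p = 3.53e-11, limma). Calcoco1, an autophagy receptor of the endoplasmic reticulum and Golgi, fell by 0.66 (SE 0.12, adjusted p = 2.26e-05, limma). Vps11, of the tethering complexes that fuse vesicles with lysosomes, rose by 0.39 (SE 0.11, adjusted p = 0.00537, limma), and was not called under 5 of the 16 alternatives: 0.17 with upper-quartile scaling, 0.20 with scaling on abundant genes, 0.25 with limma-voom or without PBS A, and 0.29 without dopamine B.

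Of 13 genes listed as cathepsin inhibitors 4 rose (30.8%) and 2 fell (15.4%), set beside 14.3% and 7.00% of all genes and 39.1% and 7.90% of abundant genes. Several of them are serpins, and whether these act on the lysosomal proteases above was not tested. The 2 that fell, named beyond the 4 with the smallest p, were Serpinb1a at -1.08 and Serpina3g at -0.32. Serpina3g was -0.26 without PBS A and then not called. The cystatin Cst7, the most abundant gene of the list, was at -0.02 and not called. The cystatins Cst3 at 0.27, Cstb at 0.24 and Cst6 at 0.34 were not called either. Ctla2a, an inhibitor related to the propeptide of cathepsin L, had 157 and 178 normalized counts in dopamine A and B, against 59.5 and 63.6 in PBS A and B (log2 fold change 1.43, SE 0.17, adjusted p = 8.16e-09, limma). Serpinb6b had 523 and 514 in dopamine A and B, against 195 and 242 in PBS A and B (1.25, SE 0.12, adjusted p = 1.00e-11, limma). Serpina3f had 830 and 773 in dopamine A and B, against 408 and 359 in PBS A and B (1.06, SE 0.10, adjusted p = 1.00e-11, limma). Serpinb9, best known as an inhibitor of granzyme B, rose by 0.69 (SE 0.09, adjusted p = 4.20e-08, limma). For each of the 4 rising genes both dopamine libraries lay above both PBS libraries. The mouse Serpina3, Serpinb6, Serpinb9 and Ctla2 genes belong to families of close copies, so reads may have been split between copies.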
